A study of Mus musculus with 12 samples.

Results

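The zinc metalloproteinases of bone matrix and their inhibitors were followed in osteoblasts of mice treated with PTH and in osteoblastic cells overexpressing *Slpi*. Genes were taken by name as *Mmp*, *Adam* and *Adamts* with a number or as *Timp1* to *Timp4*, and kept where any of the 12 libraries gave an FPKM of 1 or more. FPKM are fragment numbers scaled by transcript length and sequencing depth, so levels can be compared between genes per length. Of 73 matching names, 38 passed, against 14375 of the 25897 gene names in the series. They comprised 12 of 23 MMP genes, 8 of 27 ADAM genes, 15 of 19 ADAMTS genes and 3 of 4 TIMP genes. Just above the minimum lay *Adamts20* and *Adamts7*, with highest values of 1.01 and 1.36 FPKM, and just below it *Adamts13* and *Mmp17*, with 0.922 and 0.913 FPKM. *Timp4* reached 0.388 FPKM. The 35 names left out included 8 that were listed at 0 in every library.

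Sorted osteoblasts came from Col2.3-ECFP mice, which carry a cyan fluorescent protein under a type I collagen promoter. The female mice were 12 weeks of age at the start and received vehicle (PBS) or a hormone fragment, PTH(1-34), for 3 weeks. The dose was 40 µg/kg, given once daily on 5 days of each week. Living Lin- CD45- ECFP+ cells were sorted 24 h after the last injection, giving 3 vehicle and 3 PTH libraries. The other 6 libraries came from subconfluent MC3T3-E1 cells, a clonal osteoblastic line from mouse calvaria, with 3 mock libraries carrying the empty pMX-IRES-Puro retrovirus and 3 carrying the same vector with *Slpi*. The reporter was shared by both groups of mice, and the vector and its puromycin resistance by both groups of cells. *Slpi*, which encodes an inhibitor of serine proteases, lay between 1.64 and 2.62 FPKM with vehicle and between 19.8 and 37.5 FPKM with PTH. In MC3T3-E1 cells it was 377 to 396 FPKM in mock and 1848 to 2105 FPKM in *Slpi*-transduced libraries, higher in each library labelled *Slpi* than in each mock library.

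MMPs are secreted or membrane-anchored enzymes that cleave collagens and other matrix proteins after removal of a propeptide. ADAMs are mostly cell-surface sheddases that release the outer parts of membrane proteins, while ADAMTS enzymes are secreted and include procollagen N-proteinases, enzymes that cut proteoglycans such as aggrecan and versican, and others with different or little known substrates. TIMPs bind the active site of MMPs and of some ADAM and ADAMTS enzymes. In bone, osteoblast-lineage MMP13 and MMP14 degrade collagen during remodeling, and *Mmp13* is a classical transcriptional target of acute PTH signaling.

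Whole-library values differed within the sorted groups. The read depth was 0.787 to 1.40 relative to vehicle replicate 1 in sorted cells and 0.870 to 1.00 relative to mock replicate 1 in MC3T3-E1 cells. Pearson's r of log2(FPKM + 1) across genes, which are not independent, was 0.952 to 0.962 among vehicle, 0.908 to 0.946 among PTH and 0.984 to 0.991 among libraries of either MC3T3-E1 group. Osteoblast markers summed to 9463 to 11574 FPKM with vehicle and 9908 to 17944 FPKM with PTH, most of it from *Bglap*. All 7 had a log2 fold change above 0 with PTH (median 0.39), 1 of them, *Alpl*, was called higher, and 5 were higher at an unadjusted *p* under 0.05. Despite the CD45- gate, the 11 neutrophil markers summed to 379 to 472 FPKM with vehicle and to 2373, 1979 and 702 FPKM in PTH replicates 1, 2 and 3, and 6 of 11 were higher. T or NK cell markers summed to 132 to 237 FPKM with vehicle and 1.04 to 24.4 FPKM with PTH, and 6 of 7 were lower. Of the 7, *Cd3d*, *Cd2* and *Xcl1* reached 1 FPKM only with vehicle. Of the 4 that reached it in both groups, 4 were lower. Among all 13004 genes tested, 6.38% were called higher and 8.85% lower with PTH. Heart muscle markers summed to 1892 FPKM in PTH replicate 2 and at most 12.2 FPKM elsewhere. Macrophage markers summed to 8.76 to 21.9 FPKM and endothelial markers to 0.999 to 6.55 FPKM over all 6 libraries. Marrow stroma markers summed to 34.4 to 44.0 FPKM and chondrocyte markers to 599.8 to 770.1 FPKM, most of it from *Col2a1*. Of the 6 chondrocyte markers, 5 were above 0 with PTH (median 0.98) and 1, *Acan*, was called higher. *Col9a2* was 3.13 to 4.83 FPKM with vehicle and 23.4, 18.4 and 4.70 FPKM in PTH replicates 1, 2 and 3. *Col9a1* and *Matn3* were likewise high in PTH replicates 1 and 2 alone. *Col10a1* was 15.9, 14.8 and 22.8 FPKM with vehicle and 31.97, 25.9 and 1.30 FPKM with PTH. Its log2 fold change of -0.55 was the 1 below 0 and was not called. In MC3T3-E1 cells, the osteoblast sum was 155 to 163 FPKM in mock and 675 to 729 FPKM in *Slpi* libraries. Osteoclast markers summed to 75.3 to 82.0 FPKM over both groups, nearly all of it from *Ctsk*, while *Dcstamp*, *Calcr* and *Atp6v0d2* were at 0 in each library. Neutrophil, macrophage, T or NK cell, endothelial and heart muscle sums there did not exceed 1.72 FPKM in any library. Chondrocyte sums were 85.4 to 112 FPKM over both groups, nearly all of it from *Col2a1*, with *Acan* at 0 in each library. Marrow stroma sums were 83.1 to 85.2 FPKM in mock and 61.1 to 66.6 FPKM in *Slpi* libraries, most of it from *Cxcl12*. Of the 4 stroma markers tested, *Cxcl12* and *Kitl* were called lower. *Lepr* and *Ebf3*, which reached 1 FPKM only in *Slpi* libraries, were called higher. Among all 11466 genes tested there, 31.9% were called higher and 28.9% lower. In bulk RNA, fewer cells of a type and less RNA per cell cannot be told apart.

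In vehicle-treated osteoblasts, few members carried most of the signal. *Mmp2*, the gene of gelatinase A, was highest at 445 ± 40.6 FPKM (SD, n = 3), followed by *Mmp13* (collagenase 3) at 295 ± 51.1 and *Timp1* at 225 ± 28.8 FPKM. These 3 ranges did not overlap. *Mmp14*, which encodes the membrane collagenase MT1-MMP, stood at 159 ± 16.4 FPKM and overlapped with *Timp2* at 144 ± 8.71 FPKM. The ADAMTS family was led by *Adamts1*, a proteoglycan-cleaving enzyme gene, at 118 ± 14.6 FPKM, and *Adamts2*, a procollagen N-proteinase gene, at 87.0 ± 11.2 FPKM. *Adam12* was the leading ADAM gene, with 32.4 ± 3.01 FPKM. *Mmp2*, *Mmp13* and *Mmp14* together made 89.0% to 96.4% of the summed MMP level in each of the 12 libraries.

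Mock MC3T3-E1 cells ranked the members in another order. *Mmp2* again led, at 563 ± 5.14 FPKM, but *Timp2* was next at 499 ± 13.7 FPKM, ahead of *Mmp14* at 237 ± 8.27 FPKM. *Timp1* and *Mmp13* overlapped, at 194 ± 4.79 and 191 ± 4.26 FPKM. *Adam23*, an ADAM that lacks protease activity, was the leading ADAM gene with 66.6 ± 1.58 FPKM, whereas it had 0.654 ± 0.399 FPKM in vehicle-treated osteoblasts. *Mmp23* had 0.0673 ± 0.0315 FPKM in the line and 37.2 ± 8.58 FPKM in vehicle-treated osteoblasts. *Adamts3* and *Adamts15* were listed at 0 in all 6 MC3T3-E1 libraries. Both sets of FPKM were scaled separately and, per the labels, came from different library kits, so these differences between cell sources were not tested.

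The first comparison asked how 3 weeks of intermittent PTH changed these genes in osteoblasts. Of 37 members tested, 12 rose with PTH and 0 fell, and 25 did not pass the threshold, an adjusted *p* under 0.05 in limma. Among all 13004 genes tested, 6.38% rose and 8.85% fell. At an unadjusted *p* under 0.05, 18 members were higher and 0 lower by limma, and 17 and 0 by an unmoderated linear model. The median log2 fold change, taken on log2(FPKM + 1), was 0.41 over the members and 0.01 over all genes tested, with 83.8% of members and 50.6% of genes above 0. The rises covered 3 of 3 TIMPs, 5 of 12 MMPs, 2 of 8 ADAMs and 2 of 14 ADAMTS genes. *Adamts18*, *Mmp15* and *Mmp28* reached the minimum of 1 FPKM only with PTH and *Adam23* only with vehicle. Of the 33 members that reached it in both groups, 10 rose.

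These calls rested on the full set of libraries. Without vehicle replicate 1 or without vehicle replicate 2, limma called 0 members, against 17 and 13 higher at an unadjusted *p* under 0.05. Hardly any gene was called in these fits, 1 of 12899 and 0 of 12835, so the 0 was not particular to the members. Without PTH replicate 1 it called 3, which were *Timp1*, *Mmp8* and *Mmp23*. Without PTH replicate 2, where heart muscle markers stood apart, it called 11, of which *Adamts3* was added and *Adam8* and *Mmp28* were lost. The lowest adjusted *p* of any member without vehicle replicate 1 was 0.0734. With 3 libraries per group, the smallest two-sided *p* of an exact permutation test is 0.10.

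**Figure D1:**
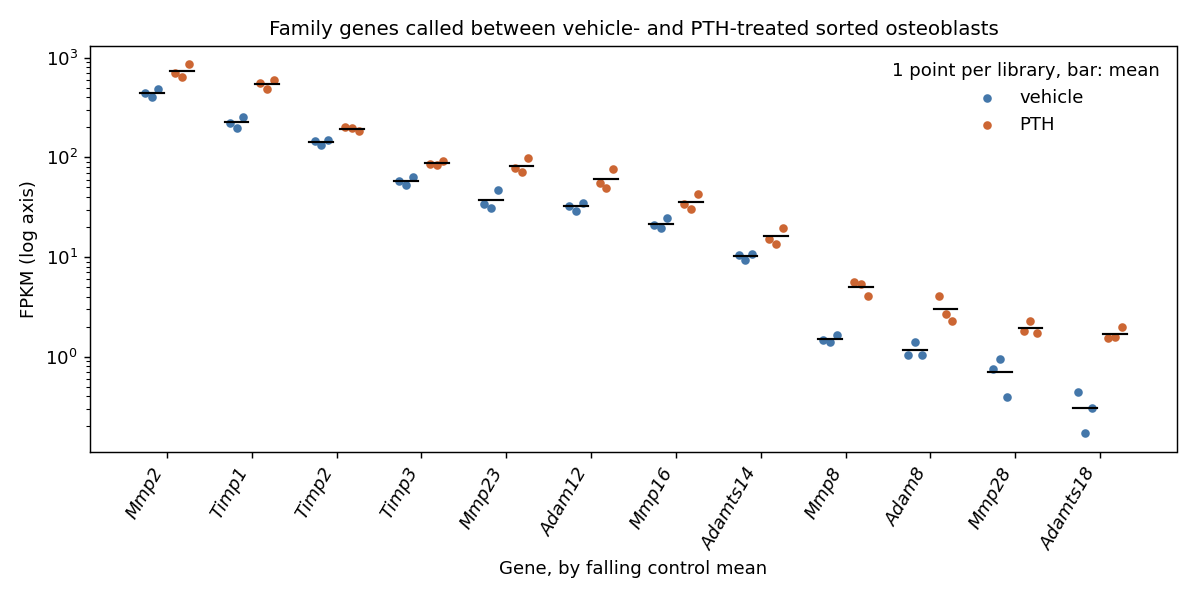
FPKM on a log axis for the 12 genes that rose with PTH, by falling vehicle mean. Each point is 1 library, replicates 1 to 3 from left to right, and bars are means. For each gene the 3 PTH points lie above the 3 vehicle points, from *Mmp2* at 404 to 859 FPKM down to *Adamts18* at 0.171 to 1.99 FPKM.

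The inhibitors rose together. *Timp1* (chromosome X, 20870166 to 20874735 of mm10), which encodes a soluble inhibitor of most MMPs, was 224, 197 and 255 FPKM with vehicle and 563, 484 and 598 FPKM with PTH. The lowest PTH library lay well above the highest vehicle library. It rose by 1.28 on the log2 scale (standard error, SE, 0.130, adjusted *p* by limma 0.0131). *Timp3*, whose product stays bound to matrix and also inhibits ADAM17 and aggrecanases, was 58.5, 52.9 and 64.0 FPKM with vehicle and 85.6, 83.6 and 92.8 FPKM with PTH. It rose by 0.57 (SE 0.104, adjusted *p* by limma 0.0204). *Timp2*, whose product both inhibits MMP2 and helps MT1-MMP to activate it, was 146, 134 and 151 FPKM with vehicle and 202, 199 and 183 FPKM with PTH. Its rise of 0.44 (SE 0.0919, adjusted *p* by limma 0.0283) became 0.16 after quantile normalization, with an adjusted *p* of 0.314. *Timp1* lies over *Syn1* and *Timp3* over *Syn3* on the opposite strand, as *Mmp28* does over 1700020L24Rik, and *Timp2* overlaps *Cep295nl* on the same strand. The kit used for sorted cells does not mark strand, so reads of such partners could not be told apart.

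Among MMPs with abundant transcripts, *Mmp2* (chromosome 8, 92827291 to 92853420) was 447, 404 and 485 FPKM with vehicle and 702, 635 and 859 FPKM with PTH. The groups did not overlap, and PTH replicate 3 was highest. Its log2 fold change was 0.71 (SE 0.136, adjusted *p* by limma 0.0233). The membrane-anchored *Mmp23* (chromosome 4, 155650655 to 155653384) was 33.7, 30.9 and 47.0 FPKM with vehicle and 77.7, 71.7 and 98.7 FPKM with PTH. It rose by 1.14 (SE 0.187, adjusted *p* by limma 0.0177). *Mmp16*, the gene of the membrane enzyme MT3-MMP, was 21.7 ± 2.53 FPKM with vehicle and 35.8 ± 6.33 FPKM with PTH (SD, n = 3), a rise of 0.69 (SE 0.152, adjusted *p* by limma 0.0314). *Mmp14* was 167, 140.4 and 170.0 FPKM with vehicle and 199, 193 and 193 FPKM with PTH. Its PTH libraries were all above the vehicle libraries, but the log2 fold change of 0.30 did not pass (adjusted *p* by limma 0.0929) and was 0.02 after quantile normalization.

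The collagenase gene *Mmp13* did not pass with PTH. It was 354, 259 and 274 FPKM with vehicle and 294, 314 and 195 FPKM with PTH. The groups overlapped, and PTH replicate 3 was the lowest of the 6 libraries, as it was for the chondrocyte marker *Col10a1*. The part of chondrocyte RNA in the *Mmp13* level was not tested. The log2 fold change of *Mmp13* was -0.16 (95% interval -0.64 to 0.33, adjusted *p* by limma 0.608), and without PTH replicate 3 it was 0.05. After quantile normalization it was -0.49, lower at an unadjusted *p* under 0.05 but with an adjusted *p* of 0.149. *Mmp8*, the neutrophil collagenase gene, was 1.46, 1.42 and 1.67 FPKM with vehicle and 5.67, 5.39 and 4.02 FPKM with PTH. It rose by 1.25 (SE 0.160, adjusted *p* by limma 0.0138) and, as the neutrophil marker sum did, was lowest of the PTH libraries in replicate 3. *Mmp9*, the gelatinase B gene of osteoclasts and neutrophils, was 11.4, 14.2 and 5.82 FPKM with vehicle and 11.98, 8.34 and 2.32 FPKM with PTH. It was lowest in PTH replicate 3 and gave a log2 fold change of -0.56 with a wide 95% interval, -1.80 to 0.68. The 7 osteoclast markers summed to 145 to 162 FPKM with vehicle and 254 to 293 FPKM with PTH, most of it from *Ctsk*, while *Dcstamp* and *Calcr* were at 0 in all libraries but PTH replicate 1. Of this list, 2 genes were tested and 1, *Ctsk*, was called higher, by 0.77. The other, *Acp5*, was 8.31, 10.2 and 7.12 FPKM with vehicle and 27.4, 25.4 and 9.88 FPKM with PTH. Its log2 fold change of 1.09 did not pass (adjusted *p* by limma 0.0848). At an unadjusted *p* under 0.05, 2 were higher by limma and 1 by an unmoderated linear model. The part of osteoclast or neutrophil RNA in the *Mmp9* level was not tested.

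At low levels, the secreted *Mmp28* (epilysin) was 0.759, 0.954 and 0.397 FPKM with vehicle and 1.83, 2.30 and 1.73 FPKM with PTH, a rise of 0.80 (SE 0.200, adjusted *p* by limma 0.0407). With a pseudocount of 0.1 in place of 1 the rise was 1.41 and the adjusted *p* 0.0512. The call was also lost in each of the 6 fits that left out 1 library, with adjusted *p* values of 0.0638 to 0.123. *Mmp3* (stromelysin 1), *Mmp11* (stromelysin 3), *Mmp15* (MT2-MMP) and *Mmp19* had log2 fold changes of 0.22, 0.33, 0.43 and 0.31, and their groups overlapped.

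Of the ADAM genes, *Adam12*, which encodes meltrin alpha, was 32.9, 29.1 and 35.1 FPKM with vehicle and 55.8, 49.8 and 77.1 FPKM with PTH. Its log2 fold change was 0.87 (SE 0.172, adjusted *p* by limma 0.0245). *Adam8*, known from leukocytes, was 1.05, 1.41 and 1.03 FPKM with vehicle and 4.11, 2.69 and 2.29 FPKM with PTH, a rise of 0.88 (SE 0.208, adjusted *p* by limma 0.0368). Its highest value fell in PTH replicate 1, where the neutrophil sum was also highest. The part of neutrophil RNA in the values of *Mmp8* and *Adam8* was not tested. In MC3T3-E1 cells, where the neutrophil sum was at most 1.72 FPKM, *Mmp8* did not exceed 0.0310 FPKM, while *Adam8* was 0.644 to 1.05 FPKM. The sheddase genes *Adam10* and *Adam17* gave 0.26 and -0.13 on the log2 scale and did not pass, nor did *Adam9*, *Adam15*, *Adam19* and *Adam23*, at 0.22, 0.35, 0.21 and -0.05.

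Of the 3 procollagen N-proteinases, which trim the amino end of fibrillar procollagen, *Adamts14* passed. It was 10.5, 9.25 and 10.7 FPKM with vehicle and 15.2, 13.6 and 19.8 FPKM with PTH, a rise of 0.61 (SE 0.155, adjusted *p* by limma 0.0430). This call was lost in 5 of the 6 fits that left out 1 library, PTH replicate 2 being the exception, and without the trend (adjusted *p* 0.0567). *Adamts2* was 86.2, 76.2 and 98.5 FPKM with vehicle and 116, 107 and 172 FPKM with PTH, and *Adamts3* was 1.80 to 1.97 and 2.64 to 4.86 FPKM. Neither group pair overlapped, yet both missed the threshold, with log2 fold changes of 0.57 and 0.66 and adjusted *p* values by limma of 0.0920 and 0.0647. Of 5 proteoglycan-cleaving members tested, limma called 0, and 1 of them, *Adamts9*, was higher at an unadjusted *p* under 0.05, as with an unmoderated linear model. *Adamts1* was 109.5, 109.7 and 135 FPKM with vehicle and 109.6, 99.0 and 143 FPKM with PTH, so the groups overlapped nearly completely. *Adamts4* and *Adamts5*, the principal aggrecanase genes, gave log2 fold changes of -0.01 and 0.06, with 95% intervals of -0.31 to 0.30 and -0.28 to 0.40. *Adamts9* and *Adamts15* gave 0.58 and 0.42, with adjusted *p* values by limma of 0.0736 and 0.162. *Adamts18*, whose substrates are poorly known, was 0.438, 0.171 and 0.302 FPKM with vehicle and 1.53, 1.56 and 1.99 FPKM with PTH, a rise of 1.05 (SE 0.190, adjusted *p* by limma 0.0204), or 2.2 with a pseudocount of 0.1. The other 5 members, *Adamts6*, *Adamts7*, *Adamts10*, *Adamts12* and *Adamts17*, lay between 0.11 and 0.58. *Adamts20* did not exceed 0.106 FPKM here and was not tested.

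Across libraries, 8 of the 12 risen members peaked in PTH replicate 3, and 9 of 12 had their highest vehicle value in vehicle replicate 3. These 2 libraries also had the greatest relative depth of their groups, 1.40 and 1.34. Their osteoblast marker sums were likewise the highest, 17944 and 11574 FPKM. How often other genes peaked there was not counted. In 21 of 37 members, the 3 PTH libraries lay above the 3 vehicle libraries, and in 0 members below. Among all genes tested, the shares were 19.5% and 20.9%.

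**Figure D2:**
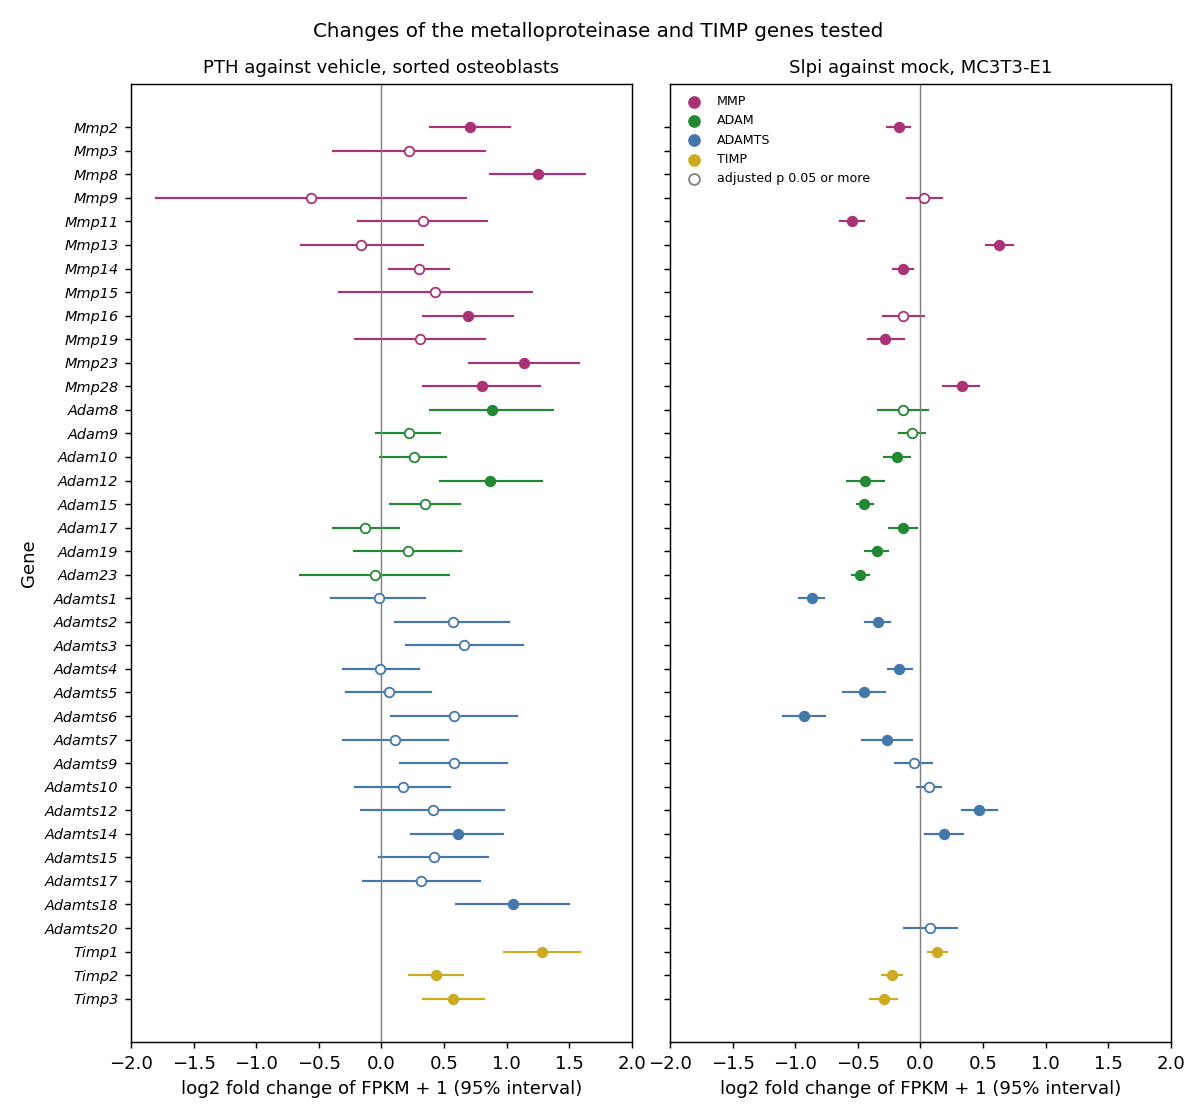
Log2 fold changes of FPKM + 1 with 95% intervals for each gene tested, PTH against vehicle on the left and *Slpi* against mock on the right, colored by family. Filled points have an adjusted p under 0.05. On the left 12 points are filled, each above 0, and on the right 5 filled points lie above and 18 below 0. A gene with no point in a panel was not tested there.

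The second comparison asked what constitutive *Slpi* did to the same genes in MC3T3-E1 cells. Of 30 members tested, 5 rose and 18 fell, and 7 did not pass. Large shares of the 11466 genes tested passed in this experiment, 31.9% higher and 28.9% lower, so the count of risen members lay below the share over all genes and that of fallen members above it. The median log2 fold change was -0.17 over the members and 0.00 over all genes, and 22 of 30 members were below 0. None of the 30 members changed by 2-fold on log2(FPKM + 1). *Adam8* and *Adamts7* reached 1 FPKM only in mock and *Adamts20* only in *Slpi* libraries. Of the 27 members that reached it in both groups, 5 rose and 17 fell. *Mmp3*, *Mmp8*, *Mmp15*, *Mmp23*, *Adamts3*, *Adamts15*, *Adamts17* and *Adamts18* stayed below the minimum and were not tested.

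**Figure D3:**
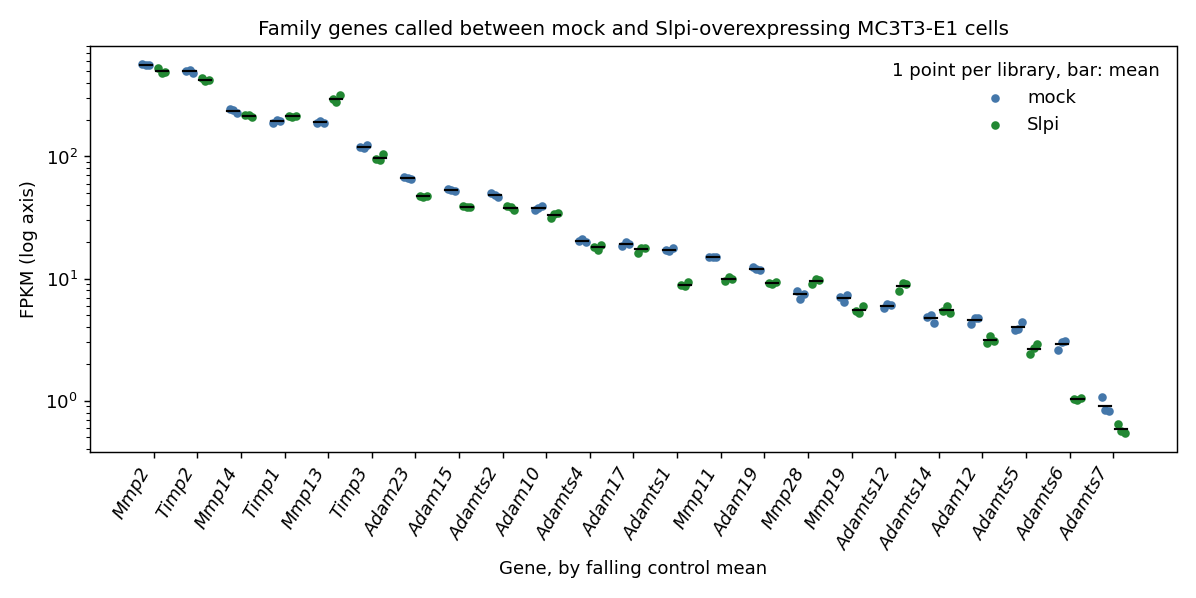
FPKM on a log axis for the 23 genes called between mock and *Slpi* libraries, by falling mock mean. Each point is 1 library, replicates 1 to 3 from left to right, and bars are means. *Mmp13* stands out among the abundant genes, with mock libraries at 188 to 196 FPKM and *Slpi* libraries at 279 to 318 FPKM.

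*Mmp13* (chromosome 9, 7272514 to 7283331) had the largest rise among the members tested. It was 189, 196 and 188 FPKM in mock and 294, 279 and 318 FPKM in *Slpi* libraries. The groups were far apart relative to their spread, with a log2 fold change of 0.63 (SE 0.0483, adjusted *p* by limma 1.9e-05). *Adamts12*, whose product cleaves the cartilage protein COMP, rose from 5.75, 6.14 and 6.08 to 7.93, 9.22 and 8.998 FPKM, by 0.47 (adjusted *p* by limma 2.6e-04). *Mmp28* rose from 7.98, 6.76 and 7.55 to 9.11, 9.84 and 9.74 FPKM, by 0.33 (adjusted *p* by limma 0.00208). *Adamts14* and *Timp1* rose slightly, by 0.19 and 0.13. The *Adamts14* call was lost in 5 alternatives, among them leaving out mock replicate 1, mock replicate 3 or *Slpi* replicate 2, with adjusted *p* values of 0.0558, 0.109 and 0.106. After quantile normalization *Timp1* gave 0.06 and an adjusted *p* of 0.168.

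The falls were led by ADAMTS genes. *Adamts6* (chromosome 13, 104287835 to 104496695), whose product acts on microfibrils, was 2.58, 3.00 and 3.09 FPKM in mock and 1.03, 1.02 and 1.05 FPKM in *Slpi* libraries. Its mean fell to 0.357 of the mock mean, and its log2 fold change was -0.93 (SE 0.0738, adjusted *p* by limma 2.3e-05), or -1.40 with a pseudocount of 0.1. *Adamts1* (chromosome 16, 85793827 to 85803113) was 17.0, 16.9 and 17.7 FPKM in mock and 8.90, 8.62 and 9.32 FPKM in *Slpi* libraries, a log2 fold change of -0.87 (SE 0.0431, adjusted *p* by limma 3.0e-06). *Adamts5*, its neighbor on the same strand at 85856173 to 85901828, fell from 4.01 ± 0.335 to 2.68 ± 0.232 FPKM, with a log2 fold change of -0.45. With *Adamts4* at -0.17, 3 of the 5 proteoglycan-cleaving members tested fell, against 28.9% of all genes tested. *Adamts2* gave -0.34 and *Adamts7* -0.27, and the *Adamts7* call was lost without *Slpi* replicate 2 or 3, at adjusted *p* values of 0.0636 and 0.0674. *Adamts9*, *Adamts10* and *Adamts20* gave -0.05, 0.07 and 0.08 and did not pass.

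All 8 ADAM members had a log2 fold change below 0, and 6 of them fell. Among all 11466 genes tested, 5662 were below 0 and 28.9% fell. *Adam23* was 67.9, 67.0 and 64.8 FPKM in mock and 47.6, 46.9 and 47.9 FPKM in *Slpi* libraries, giving -0.48 (SE 0.0316, adjusted *p* by limma 9.8e-06). *Adam15*, which is linked to cell adhesion through its integrin-binding domain, was 53.9, 53.0 and 52.4 FPKM in mock and 39.2, 38.5 and 38.5 FPKM with *Slpi*, giving -0.45 (adjusted *p* by limma 1.1e-05). *Adam12* fell from 4.62 ± 0.296 to 3.14 ± 0.215 FPKM and *Adam19*, the meltrin beta gene, from 12.1 ± 0.323 to 9.25 ± 0.205 FPKM. *Adam10*, which cleaves Notch receptors, and *Adam17*, which releases TNF, fell by less, with log2 fold changes of -0.19 and -0.14. The *Adam17* call was lost in 5 alternatives, among them leaving out mock replicate 2, mock replicate 3 or *Slpi* replicate 1, and that of *Adam10* in 1, without a filter on low values. *Adam8* and *Adam9* gave -0.14 and -0.07 and did not pass.

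Among MMPs, *Mmp11* fell most. It was 15.1, 15.0 and 14.9 FPKM in mock and 9.50, 10.4 and 10.02 FPKM in *Slpi* libraries, a log2 fold change of -0.55 (SE 0.0428, adjusted *p* by limma 2.2e-05). *Mmp19* gave -0.28. The abundant *Mmp2* and *Mmp14* fell by small amounts that exceeded the narrow spread of these libraries. *Mmp2* was 568, 558 and 563 FPKM in mock and 528, 479 and 489.9 FPKM with *Slpi* (log2 fold change -0.17, adjusted *p* by limma 0.00590), and *Mmp14* was 244, 241 and 228 against 217, 217 and 212 FPKM (-0.14, adjusted *p* by limma 0.00749). *Mmp9* and *Mmp16* gave 0.03 and -0.14 and did not pass. *Timp2* was 505, 508 and 483 FPKM in mock and 436, 417 and 425 FPKM with *Slpi*, a log2 fold change of -0.23 (adjusted *p* by limma 5.7e-04). *Timp3* was 120.3, 117 and 124 FPKM in mock and 94.7, 94.1 and 105 FPKM with *Slpi*, a log2 fold change of -0.29 (adjusted *p* by limma 8.2e-04).

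The balance of proteases and inhibitors was described from summed levels, without a test. In sorted osteoblasts the 12 MMPs summed to 1042, 875 and 1013 FPKM with vehicle and 1333, 1269 and 1402 FPKM with PTH. The 3 TIMPs summed to 429, 384 and 469.7 FPKM with vehicle and 851, 767 and 874 FPKM with PTH. MMP per TIMP was therefore 2.43, 2.28 and 2.16 with vehicle and 1.57, 1.65 and 1.60 with PTH. With *Timp1* left out of the sum, the ratio was 5.09, 4.68 and 4.71 with vehicle and 4.63, 4.49 and 5.08 with PTH, and the groups overlapped. In MC3T3-E1 cells, MMP per TIMP was 1.28, 1.26 and 1.28 in mock and 1.45, 1.41 and 1.43 with *Slpi*. With *Mmp13* left out it was 1.05, 1.02 and 1.04 in mock and 1.05, 1.03 and 0.999 with *Slpi*, again overlapping.

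**Figure D4:**
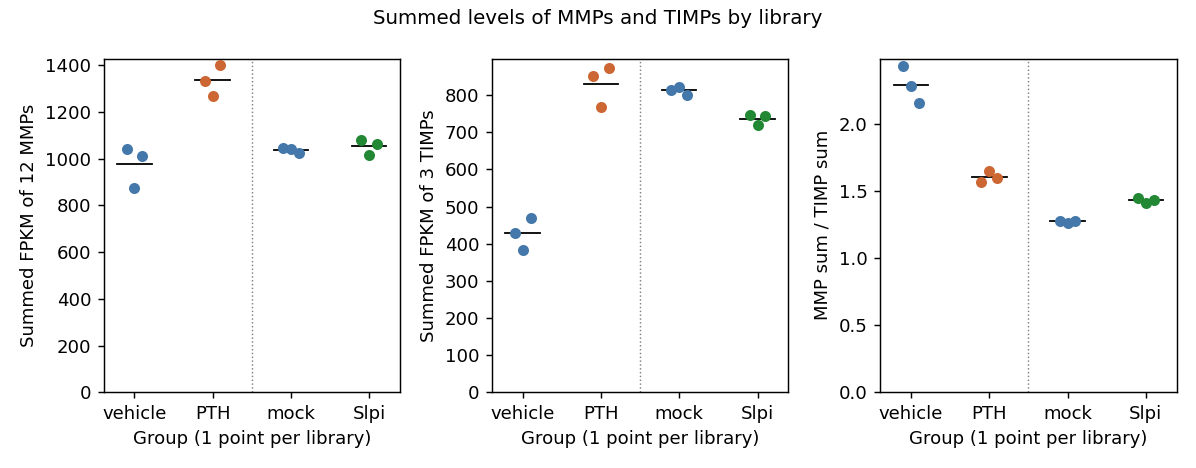
Summed FPKM of the 12 MMPs, of the 3 TIMPs, and their ratio, with 1 point per library and bars at the means. The dotted line separates the sorted osteoblasts from MC3T3-E1 cells, whose values were scaled separately. The ratio is 2.16 to 2.43 with vehicle and 1.57 to 1.65 with PTH, and 1.26 to 1.28 in mock and 1.41 to 1.45 with *Slpi*.

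Both comparisons tested 29 members, in different cells and with no shared libraries. *Adamts14*, *Mmp28* and *Timp1* rose in both, but the *Adamts14* and *Timp1* calls with *Slpi* were lost under the alternatives given above. *Adam12*, *Mmp2*, *Timp2* and *Timp3* rose with PTH and fell with *Slpi*. All of these PTH calls were lost without vehicle replicate 1 or 2, without a filter on low values and without moderation, where hardly any gene was called. Each but that of *Timp1* was also lost without PTH replicate 1. Those of *Mmp28* and *Adamts14* were lost in further fits, as given above. That of *Timp2* was also lost without the trend (adjusted *p* by limma 0.0532) and after quantile normalization. *Adamts12* and *Mmp13* rose with *Slpi* and did not pass with PTH, and 14 members fell with *Slpi* and did not pass with PTH. Whether the changes differed between the experiments was not tested.

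*Mmp13*, *Mmp3* and *Mmp8* belong to a cluster of 10 *Mmp* genes that spans 7272514 to 7699585 of chromosome 9. The other 7 genes, *Mmp12*, *Mmp1b*, *Mmp1a*, *Mmp10*, *Mmp27*, *Mmp20* and *Mmp7*, did not exceed 0.464 FPKM in any library. Within the cluster, *Mmp13* at 0 kb had a vehicle mean of 295 FPKM, *Mmp3* at 173 kb 1.75 FPKM and *Mmp8* at 286 kb 1.51 FPKM. Of these 3 members, *Mmp8* passed with PTH. The 250 bases before the RefSeq start of these 3 genes (build GRCm38.p6, plus strand, 5′ to 3′) are shown to compare neighbors with unequal levels. Capitals mark the letters of an AP-1 motif, TGANTCA, or of a RUNX motif, TGTGGT, on either strand. The positions are chr9:7272264-7272513 for *Mmp13*, chr9:7445572-7445821 for *Mmp3* and chr9:7558179-7558428 for *Mmp8*.
Mmp13: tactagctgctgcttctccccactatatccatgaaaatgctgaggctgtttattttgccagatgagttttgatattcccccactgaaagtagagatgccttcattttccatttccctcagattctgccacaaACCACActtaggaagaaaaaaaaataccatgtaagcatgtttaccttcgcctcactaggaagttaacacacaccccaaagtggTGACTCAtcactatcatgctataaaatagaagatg
Mmp3: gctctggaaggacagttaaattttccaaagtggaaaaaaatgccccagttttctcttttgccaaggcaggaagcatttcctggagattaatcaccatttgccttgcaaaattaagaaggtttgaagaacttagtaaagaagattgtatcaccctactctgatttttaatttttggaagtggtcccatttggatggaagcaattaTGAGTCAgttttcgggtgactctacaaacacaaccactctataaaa
Mmp8: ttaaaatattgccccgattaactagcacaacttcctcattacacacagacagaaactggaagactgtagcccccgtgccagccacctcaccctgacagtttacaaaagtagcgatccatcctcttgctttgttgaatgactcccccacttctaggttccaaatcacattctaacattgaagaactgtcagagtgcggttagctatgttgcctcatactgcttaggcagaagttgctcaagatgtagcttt

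The *Mmp13* stretch held an AP-1 match that began 35 bases before the start and a RUNX match on the minus strand at 118 bases. The *Mmp3* stretch held an AP-1 match at 46 bases and no RUNX match, and that of *Mmp8* held neither. In windows of 250 bases before and 50 after the start, 8 of the 10 cluster genes had an AP-1 match and 4 a RUNX match. A gene was counted if any of its windows held the match. Of 32851 promoters, counted singly, 7.81% and 16.8% held them. The units differ, because a gene can have several promoters, as *Mmp7* and *Adam19* did. RefSeq windows were found for 26 of the 38 members. Of these, AP-1 matches were in *Adam19*, *Mmp13* and *Mmp3*, and RUNX matches in *Adam15*, *Adam19*, *Mmp13*, *Mmp14* and *Mmp23*. Cluster genes with an AP-1 match thus ranged from *Mmp13*, at 354 FPKM in its highest library, to *Mmp1b*, listed at 0 in each. A match describes letters, not binding.

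**Figure D5:**
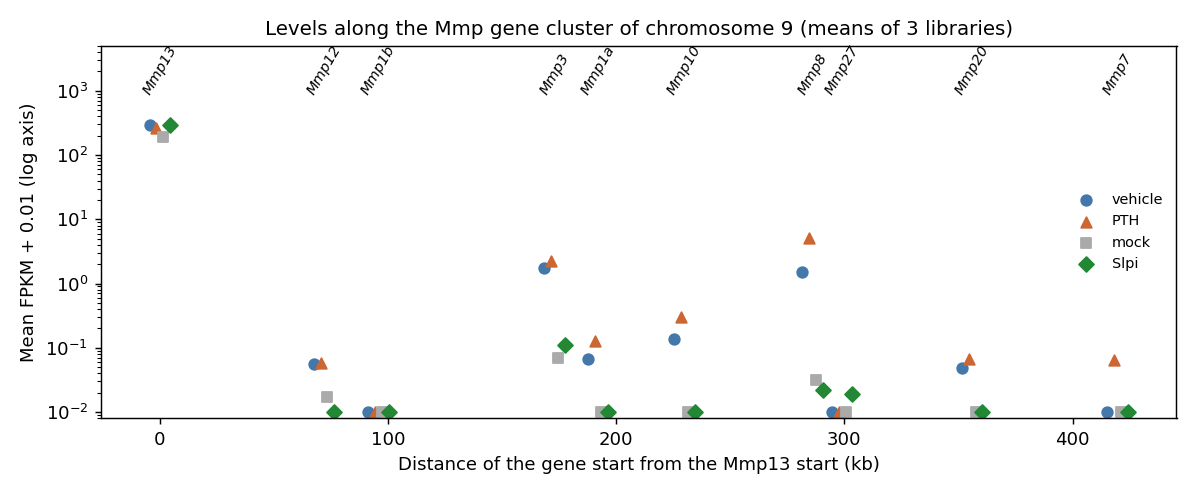
Mean FPKM + 0.01 (log axis, means of 3 libraries) of the 10 *Mmp* genes of the chromosome 9 cluster against the distance of their starts from that of *Mmp13*. The 4 groups are set slightly apart sideways. *Mmp13* lies at 191 to 297 FPKM in the 4 groups, *Mmp8* moves from 1.51 to 5.03 FPKM between vehicle and PTH, and the 7 genes that are no members stay below 1 FPKM.

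Genes that act with these enzymes were listed by role, and the members of each list that passed were counted. With PTH, 4 of 8 activators or inducers rose and 0 fell, against 6.38% and 8.85% of all genes tested. *Plaur*, the urokinase receptor gene, was 66.6, 67.1 and 78.8 FPKM with vehicle and 174, 151 and 202 FPKM with PTH, a log2 fold change of 1.29. *Furin*, whose product removes the propeptides of membrane MMPs, ADAMs and MMP11, rose by 0.72. *Plat* and *Bsg*, which encodes the MMP inducer basigin, rose by 0.58 and 0.49. Of 5 other metallopeptidases tested, 1 rose, *Bmp1*, the procollagen C-proteinase gene, by 0.93. Of 3 genes tested from the list of inhibition or clearance, 1 fell, *Spock2* (adjusted *p* by limma 0.0378). It was 3.62 to 6.54 FPKM with vehicle and 1.50 to 2.66 FPKM with PTH. *Spock2* was listed with its relatives *Spock1* and *Spock3*, so its place there does not show that its product inhibits MMPs. Of 7 ADAM trafficking genes tested, limma called 0, with 4 higher and 1 lower at an unadjusted *p* under 0.05, against 2 and 1 with the unmoderated model. Of 3 ADAMTS-like genes tested it called 0, with 0 higher and 1 lower, against 0 and 0 with the unmoderated model.

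Of 10 substrate genes tested with PTH, 4 rose and 1 fell, against 6.38% and 8.85% of all genes tested. *Col1a1* and *Col1a2* reached 1 FPKM only with vehicle. Of the 8 genes that reached it in both groups, 4 rose and 1 fell. *Fn1* (fibronectin) rose by 1.04, *Acan* (aggrecan) by 0.93, *Comp* by 0.79 and *Vcan* (versican) by 0.59. *Acan* is also on the chondrocyte list, and was 12.1 to 16.04 FPKM with vehicle and 33.7, 30.3 and 19.9 FPKM in PTH replicates 1, 2 and 3, highest where *Col9a2* was high. The part of chondrocyte RNA in it was not tested. *Tnfsf11*, the RANKL gene, was 11.8, 13.03 and 12.3 FPKM with vehicle and 6.49, 7.76 and 6.11 FPKM with PTH, a log2 fold change of -0.79. *Col1a1* and *Col1a2* were listed at 0 in vehicle replicate 3 and in all PTH libraries but in vehicle replicates 1 and 2 at 26216 and 24170.4 FPKM for *Col1a1* and 26655 and 24544 FPKM for *Col1a2*. Such zeros can be failed estimates, and no fold is given.

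With *Slpi*, 31.9% of all genes tested rose and 28.9% fell, so list counts are read against large shares. Of 7 activators or inducers tested, 4 rose and 2 fell. *Pcsk6*, a furin-like convertase gene, was 0.317, 0.198 and 0.274 FPKM in mock and 2.63, 3.12 and 2.47 FPKM with *Slpi*, a log2 fold change of 1.56. It passed the minimum of 1 FPKM only through the *Slpi* libraries, and of the 6 list genes that reached it in both groups, 3 rose and 2 fell. *Furin* gave -0.38. *Plaur* rose by 0.43 and *Bsg* gave -0.08. The 4 ADAMTS-like genes tested, whose products resemble ADAMTS but lack the protease domain, all fell. *Adamtsl1* gave -0.66 and *Adamtsl3* -0.55. Of 6 ADAM trafficking genes tested, 1 rose, *Tspan5*, by 0.63, and 3 fell, led by *Tspan17* at -0.53 and *Tspan15* at -0.34. *Lrp1*, the receptor that clears many of these enzymes, and *Spock2* fell, with -0.53 and -0.18, out of 3 tested. Of 5 other metallopeptidases tested, *Mme* rose by 0.26 and *Pappa2* gave -0.70. Of 7 substrates tested, 3 rose and 2 fell. *Col3a1* rose by 0.88 and *Col2a1* by 0.17, while *Vcan* gave -0.53 and *Fn1* -0.28.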

How the data were processed

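The deposited values are FPKM, which the authors calculated per gene in each library. Per the labels and methods, total RNA was sequenced as single reads of 75 bases, mapped to mm10 with TopHat2 2.0.13, Bowtie2 2.2.3 and SAMtools 0.1.19, and quantified with Cufflinks 2.2.1 (Cuffnorm). The gene annotation is not given in the sources used here. SMART-Seq cDNA was used for sorted cells. For MC3T3-E1 cells the labels name a stranded TruSeq kit, and the methods name SMART-Seq for both.

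Each experiment was tested on its own, 3 libraries against 3. log2(FPKM + 1) was fitted, for genes that reached 1 FPKM in any of the 6 libraries, with limma 3.58.1 (R 4.3.3, eBayes with trend), with Benjamini-Hochberg adjustment over all genes tested and a call at an adjusted *p* under 0.05. The model was tested on simulated data. Per the methods, replicates of animal samples were from different mice. No source says that the MC3T3-E1 libraries came from separate cultures, so *p* values there measure the spread between these libraries, which may be technical.

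Members and lists were chosen with earlier results of these data known. Named were called members with the 12 largest changes in each direction, members changed 2-fold at an unadjusted *p* under 0.05, the 10 with the highest mean, the TIMPs, and the 2 largest called changes per direction of each partner and substrate list. Other members and list genes are named to complete their groups, after their values were seen. FPKM give no read counts, so absolute depth is unknown. Relative depth came from the step that 1 read makes in low values. Gene positions are from GENCODE M21. Promoters are from RefSeq. Protein sequences were not used here, so the intended split of ADAM genes by their zinc-binding residues was not made. Alternatives were other filters, a pseudocount of 0.1, no trend, no moderation, quantile normalization, a replicate block, a 2-fold rule and leaving out each library in turn. Python 3.11.15, pandas 2.3.3, numpy 2.4.6 and matplotlib 3.10.9 were used.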

Additional observations from a re-analysis of the deposited data

How the results depend on the processing

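The 12 rises with PTH depended on the processing. Without a filter on low values and with an unmoderated linear model, limma or the linear model called 0 members, against 19 and 17 higher at an unadjusted *p* under 0.05. Among all genes these settings called 10 higher and 8 lower of 23284, and 0 higher and 1 lower of 13004, so nearly every call was lost. A 2-fold change at an unadjusted *p* under 0.05 was met by 4 members with PTH, and by 0 higher and 0 lower members with *Slpi*. Leaving out 1 library gave 0 to 11 risen members with PTH, and 4 to 5 risen and 17 fallen members with *Slpi*. The count of members that fell with PTH was 0 in each setting. The log2 fold change of *Adamts1* with PTH, -0.02, was 0.08 without vehicle replicate 3, 0.02 without PTH replicate 1 and 0.09 without PTH replicate 2, within a range of -0.17 to 0.09 over the libraries left out. That of *Mmp13* was 0.05 without PTH replicate 3, within -0.29 to 0.05. After quantile normalization they were -0.27 and -0.49. Over all alternatives, 6 of 37 members tested with PTH turned their sign at least once, *Adam23*, *Adamts4*, *Adamts5* and *Mmp9* besides these, and 1 of 30 with *Slpi*, *Mmp9*. None of them was called. The causes were not tested beyond the smaller number of libraries.

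A fit with a replicate block gave 13 risen members with PTH, 12 of them shared with the fit without it, and 5 risen and 19 fallen members with *Slpi*. The added members were *Adamts2* with PTH (adjusted *p* = 0.0279) and *Mmp16* with *Slpi*. Deviations of equally numbered libraries from their group means correlated at 0.0294, 0.0735 and 0.102 in sorted cells. In MC3T3-E1 cells they correlated at 0.0385, -0.0523 and -2.6e-04. Unequally numbered libraries gave -0.116 to 0.0688 in sorted cells and -0.0988 to 0.105 in MC3T3-E1 cells. These values do not settle whether libraries were paired, and the fit without a block assumed no pairing. Quantile normalization moved the median of all genes to 0.05 with PTH, and 32 of 37 members were then above 0. Abundant members gave lower log2 fold changes than before, among them *Mmp13*, *Mmp14*, *Adamts1* and *Adamts2*, which were not called. Of called ones, *Timp1* went from 1.28 to 1.02 and *Mmp2* from 0.71 to 0.54. *Timp3* went from 0.57 to 0.46 and *Timp2* from 0.44 to 0.16. Called members at low levels gave higher values, *Mmp8* 1.38 in place of 1.25, with *Adam8*, *Adamts18* and *Mmp28* likewise. Absolute depth is unknown, which limits what can be said of members near 1 FPKM.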
